A study of Homo sapiens with 10 samples.

Results

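Divergent protein-coding gene pairs were examined, that is, neighbouring genes transcribed away from each other from start sites at most 1000 bp apart. A pair consisted of a minus-strand gene whose canonical transcription start site (TSS) lay upstream of the canonical TSS of a plus-strand gene, on an autosome of GRCh38, with both genes protein-coding in GENCODE. The rule gave 957 pairs with 1842 distinct genes, 9.64% of the 19111 autosomal protein-coding genes. Of these, 139 pairs shared a gene with another pair and 22 had the same TSS interval as another pair, so the members came from 886 separate loci. The distance between the TSSs ran from 11 to 1000 bp with a median of 233 bp and quartiles of 121 and 401 bp.

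The cells were human induced pluripotent stem cells (hiPSCs) of the reporter line PB010.5, a single line that carries a FUCCI cell cycle cassette. Chromatin was cut for 5 min with micrococcal nuclease (MNase), an enzyme that digests the linker DNA between nucleosomes, in 5 amounts that ran from 0.5 to 10 U and included 1, 3 and 6 U, with 1 library per amount. The 10 samples are these 5 libraries, which were each read on paired-end runs of 150 bp and of 50 bp, and every library also carried yeast mononucleosomal spike-in DNA. The values used here came from 1 pooled list of 12921589 nucleosome positions, each an interval of 140 bp with a score, so no comparison between amounts of MNase was made. With a pooled list there are no replicates and no p-values. The spread given is the SD over the 19 autosomes with at least 20 pairs, and intervals for shares are 95% Wilson intervals, which cover counting error only.

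DNA wrapped around histones is less accessible to the transcription machinery, and active promoters usually keep a nucleosome-depleted region over the start site. The first nucleosome inside the transcribed unit is called +1, and regularly spaced nucleosomes (+2, +3 and further) usually follow it into the gene. At a divergent pair the same short stretch of DNA has to serve as the upstream region of both genes, so the +1 nucleosome of each gene stands on the far side of the other gene's promoter. Divergent promoters are known to be frequent in mammalian genomes, to be rich in CpG dinucleotides, and to serve many housekeeping genes such as those for mitochondrial proteins and DNA repair.

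The stretches between the start sites of 6 named pairs are shown first, because the results turn on whether a nucleosome position lay within them. They are plus-strand sequences of GRCh38 from the minus-strand TSS to the plus-strand TSS. Capitals mark matches, on either strand, to CCAAT (bound by NF-Y), GGGCGG (SP1), CCGGAA (ETS factors), GCGCATGC (NRF1), AAGATGGC (YY1) or TATAAA (TBP). The first 4 intervals held no midpoint of a listed position, and the last 2 held 1 midpoint each.
SURF1/SURF2, chr9:133356487-133356550: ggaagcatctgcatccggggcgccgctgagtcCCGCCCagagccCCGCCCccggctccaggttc
KBTBD4/NDUFS3, chr11:47578970-47579074: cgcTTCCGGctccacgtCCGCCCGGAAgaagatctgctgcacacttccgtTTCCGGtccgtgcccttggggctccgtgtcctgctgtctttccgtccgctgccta
ARFIP2/TIMM10B, chr11:6481331-6481501: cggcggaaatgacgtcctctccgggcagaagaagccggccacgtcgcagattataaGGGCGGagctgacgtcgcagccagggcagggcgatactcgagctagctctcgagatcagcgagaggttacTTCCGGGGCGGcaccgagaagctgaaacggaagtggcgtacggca
SARS2/MRPS12, chr19:38930763-38930944: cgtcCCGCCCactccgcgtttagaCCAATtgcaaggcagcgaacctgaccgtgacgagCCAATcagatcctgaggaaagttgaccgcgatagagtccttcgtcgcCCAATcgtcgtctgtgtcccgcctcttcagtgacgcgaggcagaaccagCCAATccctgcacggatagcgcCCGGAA
MCM7/AP4M1, chr7:100101397-100101643: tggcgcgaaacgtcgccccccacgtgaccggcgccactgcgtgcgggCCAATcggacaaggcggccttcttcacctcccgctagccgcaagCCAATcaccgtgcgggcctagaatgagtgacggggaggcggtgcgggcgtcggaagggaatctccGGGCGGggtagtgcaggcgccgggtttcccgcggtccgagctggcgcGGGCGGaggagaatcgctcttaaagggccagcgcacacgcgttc
UROS/BCCIP, chr10:125823258-125823546: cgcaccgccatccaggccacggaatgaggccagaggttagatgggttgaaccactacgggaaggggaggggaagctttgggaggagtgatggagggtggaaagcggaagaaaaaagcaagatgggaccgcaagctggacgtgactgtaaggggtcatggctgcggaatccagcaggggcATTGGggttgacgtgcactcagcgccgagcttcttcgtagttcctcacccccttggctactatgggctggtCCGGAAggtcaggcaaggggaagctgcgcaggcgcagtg

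The GC content of these 6 intervals was lowest at SARS2/MRPS12 (59.9%) and highest at SURF1/SURF2, and was 69.6% at MCM7/AP4M1, beside a median of 64.8% over all pairs. SARS2/MRPS12 held 4 CCAAT matches in 182 bases and KBTBD4/NDUFS3 held 3 CCGGAA matches in 105 bases, 1 of which overlapped a GGGCGG match on the other strand. None of the 6 intervals held a match to GCGCATGC, AAGATGGC or TATAAA.

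The positions of the list lay on a grid. Of the autosomal midpoints, 94.4% fell on 1 residue of a 10-bp grid and 5.31% lay midway on it, and no pair of neighbouring midpoints was closer than 100 bp. Distances below are therefore good to about 10 bp for a single position. The median score of autosomal positions was 14.8, in the units of the deposited signal. At the named pairs scores took stepped values such as 7.40, 8.64 and 9.87, so ties are common. Only 0.205% of autosomal positions scored below 4.94. At 13 of the 957 pairs (1.36%) the list had no position within 1500 bp outward of at least 1 TSS, and at 10 of them it had none between the TSSs or outward on either side. At these pairs the distance between neighbouring midpoints ran from 2840 to 138710 bp. They include FAM72B/SRGAP2C, BOLA2/SLX1B and HACL1/BTD, named after their values were seen. Such stretches were not read as promoter gaps, their cause was not tested, and values over the other 944 pairs are given beside those over all pairs.

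Aligned on their TSSs, the pairs showed a low density of positions at the start site and regular maxima in the direction of transcription. Midpoints were counted in bins of 10 bp with a running mean of 5 bins, and are given relative to the density found 1000 to 1500 bp outward, that is, inside the gene. The +1 maximum lay 125 bp from the TSS (SD 7.72 bp over 19 autosomes) and reached 2.33 times the outward density (SD 0.307). The height was 4.11 when only positions that reached the median score were kept, and 4.96 weighted by score. The next maxima stood at 325, 515 and 685 bp with heights of 1.82, 1.40 and 1.30, which gave a mean spacing of 187 bp (SD 9.89). The lowest density, 0.43 of the outward level, was found 45 bp inside the TSS.

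Minus-strand and plus-strand genes gave the same picture, from the same list of positions. Their +1 maxima both lay at 125 bp, with heights of 2.36 for the 957 minus-strand TSSs and 2.31 for the 957 plus-strand TSSs. The +2 heights were 1.86 and 1.79 and the spacing was 187 bp for each strand. A position 50 to 200 bp outward was found at 92.5% of TSSs on either strand.

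**Figure D1:**
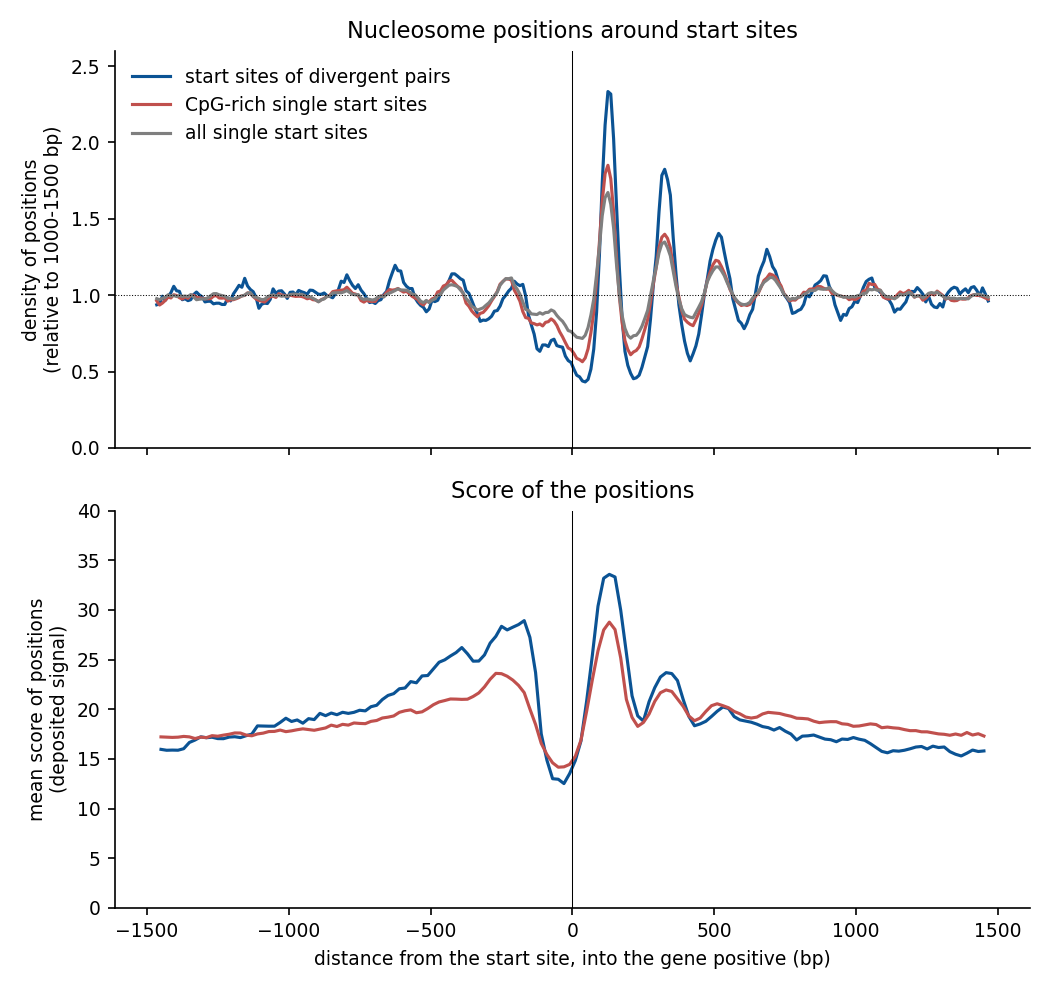
The upper panel plots the density of nucleosome positions (relative to that 1000 to 1500 bp into the gene) and the lower panel the mean score of those positions, in the deposited signal, against the distance from the start site in bp, for divergent pairs (blue), CpG-rich single start sites (red) and, above only, all single start sites (grey). The curve of the pairs reached 2.33 at 125 bp, above 1.85 for CpG-rich single start sites, and fell to 0.43 at 45 bp.

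Single TSSs gave the comparison. A single TSS was an autosomal protein-coding TSS in no pair with no other protein-coding TSS within 3000 bp, and 15778 met this. As 82.3% of the TSSs of pairs were CpG-rich, against 58.3% of single TSSs, the main comparison was with the 9197 CpG-rich single TSSs. CpG-rich meant a GC content of at least 55% and an observed over expected CpG ratio of at least 0.6 in 1000 bp centred on the TSS. Both TSSs were CpG-rich in 728 pairs, 1 TSS in 120 pairs and neither in 109 pairs. No position within 1500 bp on either side was listed at 20 of the 1914 TSSs of pairs. The same was found at 104 of the 9197 CpG-rich and 381 of the 15778 single TSSs, which were kept in the backgrounds below.

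The +1 maximum of pairs was higher than that of CpG-rich single TSSs, 2.33 against 1.85, at the same distance of 125 bp. The difference of 0.48 (SD 0.291 between autosomes) was above 0 on 19 of 19. The +2 maximum was also higher, 1.82 against 1.40, with a difference of 0.43 (SD 0.166) above 0 on 19 of 19 autosomes. The lowest density around the TSS was 0.43 in pairs and 0.56 at CpG-rich single TSSs, lower in pairs on 18 of 19 autosomes. Maxima and minima of a profile become more extreme with fewer TSSs, and pairs gave 1914 TSSs against 9197. The +1 height of pairs had a mean of 2.45 over autosomes. The part of the number of TSSs in these counts of autosomes was not tested. Restricted to the CpG-rich TSSs of pairs, the +1 difference was 0.51 (SD 0.269) and the lowest density was 0.40. The spacing of the maxima, 187 bp against 190 bp, differed by less than the SD of 14.9 bp between autosomes.

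A position 50 to 200 bp into the gene was listed at 1770 of the 1914 TSSs of pairs (92.5%), beside 87.9% of CpG-rich single TSSs and 83.1% of all single TSSs. The share in pairs was higher than at CpG-rich single TSSs on 18 of 19 autosomes, by 4.57 percentage points (SD 2.98). In the 818 pairs whose genes are in no other pair, 711 (86.9%) had such a position on both sides, 94 on 1 side and 13 on neither. As 1516 of their 1636 TSSs (92.7%) had one, most pairs would have it on both sides also if the sides were independent. In those 711 pairs the scores of the positions on either side were almost unrelated, with Spearman's rho of 0.064 as a description over pairs that share the same libraries. The minus-strand side had the higher score in 334 pairs, the plus-strand side in 360, and 17 were equal.

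The scores of the same positions were also higher near the TSS, which is no independent measure of the maxima. Positions 50 to 200 bp outward of the TSSs of pairs had a mean score of 31.4, against 16.0 for positions 1000 to 1500 bp outward, a ratio of 1.96 (SD 0.173 over autosomes). At CpG-rich single TSSs the same means were 26.4 and 17.8. The ratio was higher in pairs by 0.48 (SD 0.168) and on 19 of 19 autosomes, and the +1 score itself was higher by 5.08 (SD 1.60) on 19 of 19. Mean scores of pairs were 22.3 at 200 to 400 bp and 19.3 at 400 to 600 bp. The GC content around the midpoints also fell along the gene, from 65.1% at 50 to 200 bp to 46.9% at 1000 to 1500 bp. Nearer the TSS the 2 did not move together. Positions 0 to 50 bp outward had 67.8% GC and a mean score of 16.6, and those in the 200 bp upstream had 65.3% and 20.6. The part of GC content in the score was not tested. The +1 positions of CpG-rich single TSSs had 72.4% GC.

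The stretch between the TSSs held fewer positions than the genes on either side. Summed over pairs, 1134 midpoints fell in 284918 bp, or 3.98 per kb, where the density 1000 to 1500 bp outward was 5.01 per kb. The ratio was 0.79, a log2 value of -0.33 with an SD of 0.207, and it was below 0 on 19 of 19 autosomes. Without the 13 pairs above it was also -0.33. Weighted by score, the log2 value was 0.03, so the sign of this difference depends on whether positions are counted or weighted.

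The density between the TSSs grew with their distance. It was 3.03 per kb in the 184 pairs with TSSs 0 to 100 bp apart, 3.20 in the 227 pairs 100 to 200 bp apart, 3.55 in the 197 pairs 200 to 300 bp apart, 4.05 in the 181 pairs 300 to 500 bp apart and 4.44 in the 168 pairs 500 to 1000 bp apart. Each class includes its upper bound. Relative to the outward density the log2 values in that order were -0.65, -0.65, -0.51, -0.29 and -0.25. The density per base was thus lowest in the 2 closest classes.

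Intervals of up to 300 bp were often empty. No midpoint lay between the TSSs in 146 of 184 pairs 0 to 100 bp apart (79.3%, interval 72.9% to 84.6%) and in 125 of 227 pairs 100 to 200 bp apart (55.1%, 48.6% to 61.4%). It was 50 of 197 at 200 to 300 bp (25.4%, 19.8% to 31.9%), 7 of 181 at 300 to 500 bp (3.87%) and 2 of 168 at 500 to 1000 bp (1.19%). Over 100 to 300 bp the share was 41.3% (SD 11.2 over autosomes), and 40.6% without the 13 pairs. It was 78.3% when only positions that reached the median score were kept. Without the 13 pairs, 5 pairs at 300 to 500 bp and none of 165 at 500 to 1000 bp had an empty interval.

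The background for these shares was taken from windows as long as the median TSS distance of each class. Directly upstream of CpG-rich single TSSs, such windows were empty at 74.0%, 44.7%, 15.1%, 3.24% and 1.51% of sites in the order of the classes. From 1000 bp outward of the TSSs of the pairs themselves they were empty at 65.5%, 33.0%, 11.7% and 3.87%, and from 500 bp outward at 1.49% for the longest class. At 100 to 200 bp and at 200 to 300 bp the share in pairs lay above both backgrounds by more than its counting interval. At 0 to 100 bp the interval included the 74.0% of CpG-rich single TSSs. From 300 bp on, the share was close to both backgrounds.

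**Figure D2:**
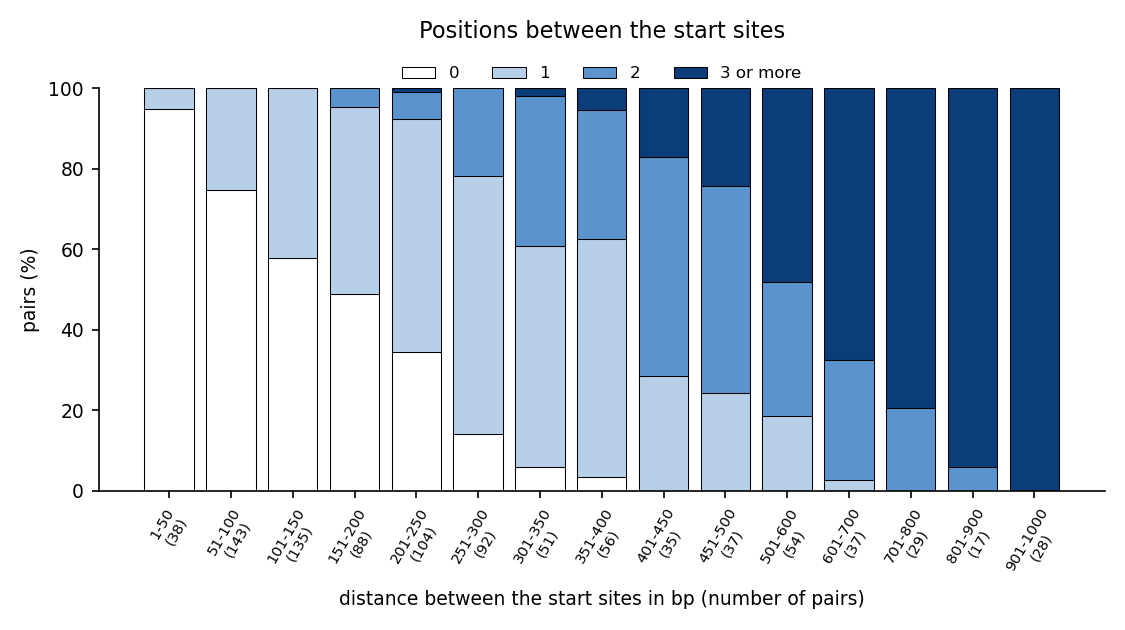
Bars give the percent of the 944 pairs that have a position listed within 1500 bp outward of each TSS, split by the number of positions between the start sites (white for 0 to dark blue for 3 or more), against the distance between the start sites in bp. Intervals without a position made up 94.7% of pairs at 1 to 50 bp, 57.8% past 100 and up to 150 bp and 14.1% at 251 to 300 bp, and no pair from 401 bp on had an empty interval.

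The number of positions between the TSSs grew with their distance. Grouping pairs by this number cannot show whether the growth was stepwise, since the number is always whole. Pairs with no position between had a median TSS distance of 109 bp (318 pairs), those with 1 had 233 bp (346 pairs), those with 2 had 407 bp (142 pairs) and those with 3 had 581.5 bp (76 pairs). The other 62 pairs, with 4 or more, had a median of 831 bp. The distances of these groups overlapped widely. The longest interval without a position measured 370 bp. Intervals with 1 position measured 34 to 634 bp, and those with 2 measured 159 to 831 bp.

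The nearest position outward of each TSS stood at a distance that hardly moved with the TSS distance. Its median was 128.5 bp in pairs 0 to 100 bp apart, 123 bp at 100 to 200 bp, 121 bp at 200 to 300 bp, 119 bp at 300 to 500 bp and 118 bp at 500 to 1000 bp, and 122 bp over all pairs. The distance between the positions on either side of the pair was a median of 320, 380, 490, 620 and 920 bp in the same order. In pairs with no position between, this distance had a median of 340 bp (SD 106.6 bp over pairs). With 1 position between, the distance per step was a median of 232.5 bp, with 2 it was 213 bp, with 3 it was 197.5 bp and with 4 or more 193 bp, where the +1 to +4 maxima inside the genes were 187 bp apart. Positions inside longer intervals thus stood nearer to the spacing found in the genes than those inside short ones. The order is partly set by how the groups were made, since a given interval divided by more steps gives shorter ones.

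**Figure D3:**
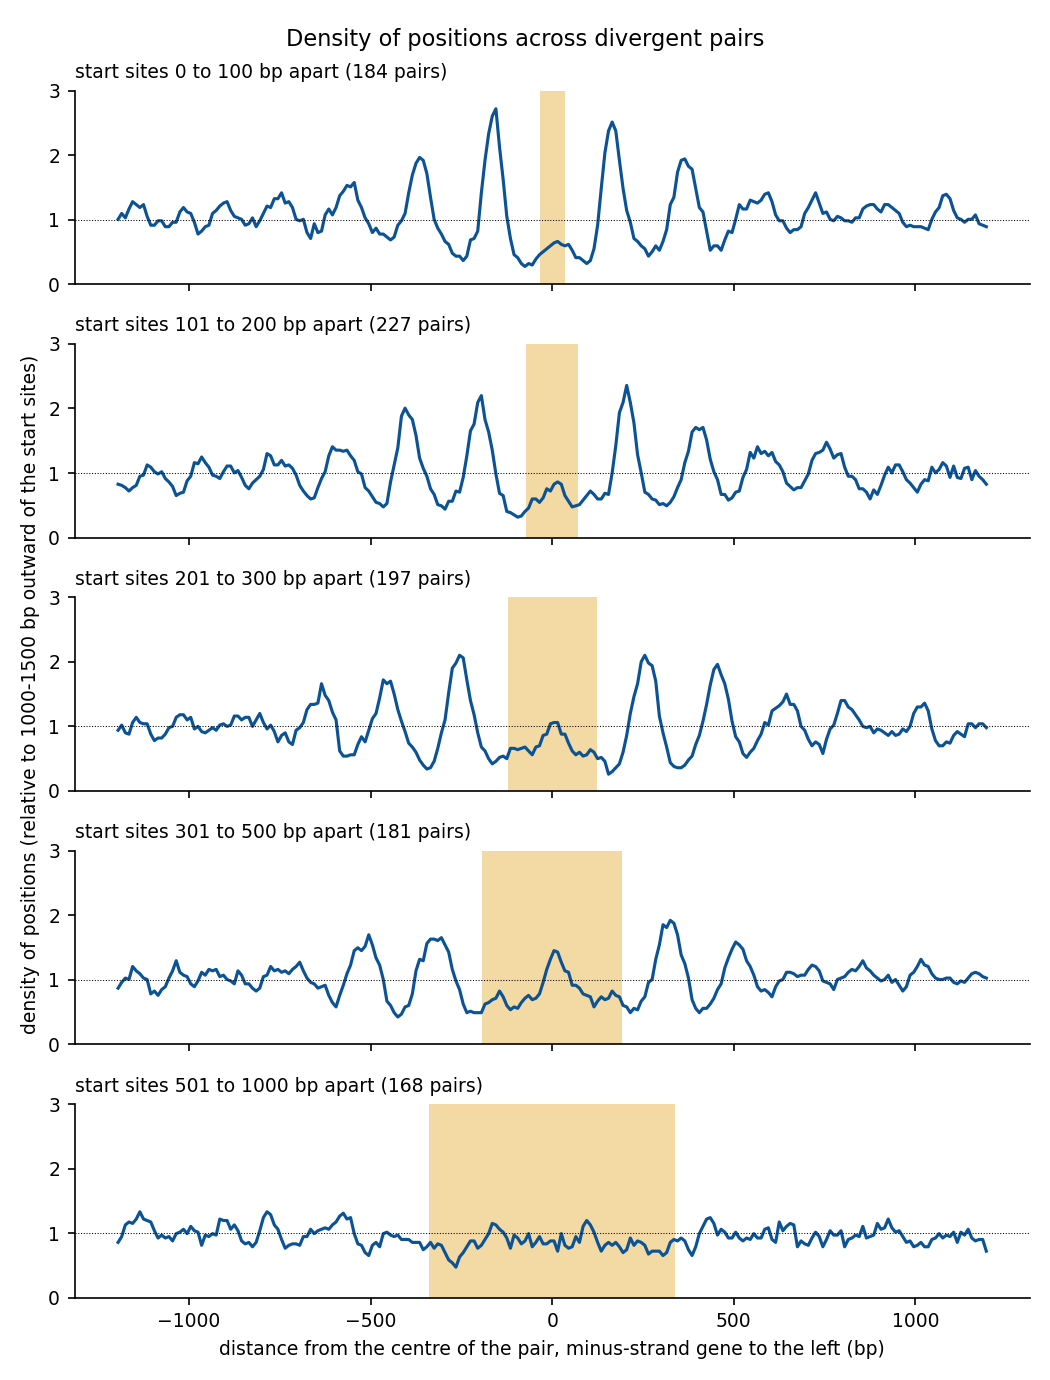
Density of positions, relative to that 1000 to 1500 bp outward of the start sites, against the distance in bp from the centre of the pair, with the minus-strand gene to the left, for 5 classes of TSS distance. The shaded band spans the median TSS distance. The outer maxima are 320, 400, 510 and 630 bp apart in the first 4 classes and the density at the centre is 0.61, 0.79, 1.01 and 1.34.

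Aligned on the centre of the pair, the classes differed in the density at the centre itself. Within 25 bp of the centre the density was 0.61 of the outward level at 0 to 100 bp, 0.79 at 100 to 200 bp, 1.01 at 200 to 300 bp and 1.34 at 300 to 500 bp. The 300 to 500 bp class therefore showed a central maximum between the maxima at -305 and 325 bp, whose heights were 1.65 and 1.92. In pairs 0 to 100 bp apart the flanking maxima at -155 and 165 bp had heights of 2.72 and 2.51, the tallest of the 5 classes in this alignment. Centring spreads the +1 positions more where TSS distances within a class vary more, so these heights cannot be compared between classes. Aligned on the TSS, the +1 heights were 2.65, 2.30, 2.34, 2.57 and 2.01 from the shortest to the longest class. In the 500 to 1000 bp class the distances vary too much for a common centre, and the centre was at 0.83.

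Where a single position stood between the TSSs, its score depended on the length of the interval. In the 38 pairs 0 to 100 bp apart with 1 position between, that position had a mean score of 10.6 (SD 3.91 over pairs), and in the 98 pairs 100 to 200 bp apart 11.6 (SD 4.98). In the 119 pairs 200 to 300 bp apart the mean was 19.1 (SD 16.1), and in the 80 pairs 300 to 500 bp apart 32.4 (SD 19.0). The neighbouring outward positions had means of 31.8, 31.3, 30.8 and 32.6 in these classes. The share of single positions at or above the autosomal median score was 18.4%, 25.5%, 42.9% and 76.2% in that order.

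In the short intervals, the single position was thus the weakest of the 3 in most pairs. Both outward neighbours scored higher in 36 of 38 pairs at 0 to 100 bp and in 84 of 98 at 100 to 200 bp. At 300 to 500 bp both neighbours were higher in 28 of 80 pairs and the position between was higher than both in 24. With the interval cut into 3 equal parts, the single position lay in the middle one in 9 of 38 pairs at 0 to 100 bp (23.7%), 41 of 98 at 100 to 200 bp (41.8%, 32.6% to 51.7%), 59 of 119 at 200 to 300 bp (49.6%) and 56 of 80 at 300 to 500 bp (59.2% to 78.9%). Even placement would give each of the 3 parts an equal share. That share lies within the intervals at 0 to 100 bp (13.0% to 39.2%) and at 100 to 200 bp. It lies below them at 200 to 300 bp (40.8% to 58.4%) and at 300 to 500 bp. Listed midpoints were at least 100 bp apart, and pairs with further positions between the TSSs were left out of these counts. A single position near an end of a longer interval leaves room for a further position, so this selection can itself favour the middle part. The comparison with an equal share therefore cannot show a preference for the middle part. In bp the median distance of the single position from the centre was 19.25, 26.5, 41 and 34 in that order. It thus stood nearer to the centre only relative to the length of the interval.

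**Figure D4:**
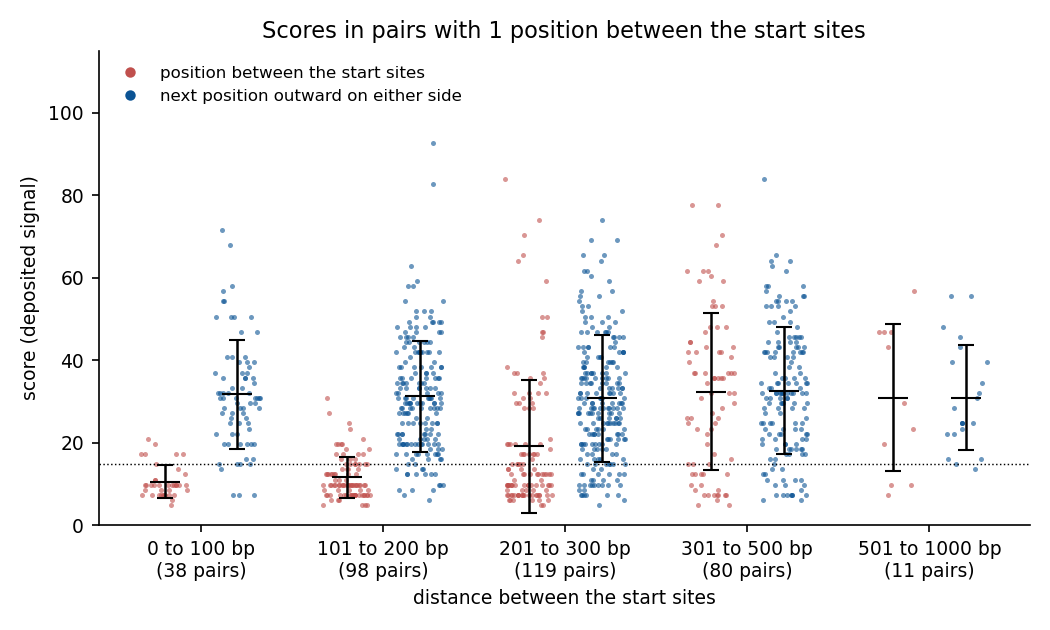
Scores (deposited signal) in pairs with exactly 1 position between the start sites, for that position (red) and for the next position outward on either side (blue), by TSS distance. Points are positions, bars the mean and SD over pairs, and the dotted line the autosomal median of 14.8. The red mean is 10.6 at 0 to 100 bp and 32.4 at 300 to 500 bp, where it meets the blue mean of 32.6.

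Within the 168 widest pairs (500 to 1000 bp), positions could be read from each TSS inward. Relative to the outward density, the first 50 bp upstream of a TSS had 0.59, the next 50 bp 0.87, and 100 to 150 bp 0.67. From 150 to 200 bp and from 200 to 250 bp the density was 1.04 and 0.96, near the level of the genes, and it was 0.81 from 250 to 300 bp and 0.90 from 300 to 400 bp. These values rest on 52, 77, 59, 92, 85, 59 and 74 positions.

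The widest distance between neighbouring midpoints over the promoter was larger in pairs than at CpG-rich single TSSs. Per TSS it was taken among the gaps that overlap the window from 250 bp upstream to 50 bp downstream. Its median was 290 bp (quartiles 240 and 354 bp) in pairs, 270 bp (220 and 330 bp) at CpG-rich single TSSs and 260 bp at all single TSSs. The difference of 20 bp had an SD of 13.6 bp over autosomes, and was above 0 on 17 of 19. When only positions that reached the median score were kept, the difference was 0.

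A gap of at least 300 bp was found at 946 of the 1914 TSSs of pairs (49.4%, interval 47.2% to 51.7%). The background was 38.4% of CpG-rich single TSSs and 37.3% of all single TSSs. The share was higher in pairs than at CpG-rich single TSSs on 19 of 19 autosomes, by 11.0 percentage points (SD 4.96). Among CpG-rich TSSs of pairs it was 51.1%, and among their other TSSs 41.4%. By TSS distance it was 53.5%, 46.3%, 49.7%, 56.1% and 41.7% from the shortest to the longest class. Both TSSs of a pair can lie in the same gap, so these counts are not independent.

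The 200 bp directly upstream of a TSS differed less. At 618 TSSs of pairs (32.3%) they held no midpoint, against 26.5% of CpG-rich and 24.7% of all single TSSs, a difference of 5.77 percentage points from CpG-rich ones with an SD of 8.32. The density there was 0.76 of the outward level in pairs and 0.81 at CpG-rich single TSSs. The log2 difference of -0.10 was smaller than its SD of 0.157 and was below 0 on 14 of 19 autosomes. It turned to 0.08 when only positions that reached the median score were kept, and to 0.30 weighted by score.

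This window mixes classes, since in close pairs it reaches past the partner's TSS. The log2 density over the 200 bp was -0.25 in pairs 0 to 100 bp apart, -0.73 at 100 to 200 bp, -0.44 at 200 to 300 bp, -0.22 at 300 to 500 bp and -0.34 at 500 to 1000 bp. In the closest class the partner's +1 maximum lies within the window. In the 100 to 200 bp class, where the window mostly ends before the partner's +1, the mean score was 13.7 and 44.3% of TSSs had no position in it.

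The GC content of the interval was examined in unshared pairs 100 to 500 bp apart, split into 3 groups by GC. The 177 pairs of the lowest group (38.0% to 61.1% GC) had 3.20 positions per kb between the TSSs, the 176 of the middle group 3.74, and the 177 of the highest group (68.8% to 87.7%) 4.35. Relative to the outward density of each group the log2 values were -0.56, -0.43 and -0.30. Empty intervals made up 33.3%, 30.1% and 25.4%, with median TSS distances of 251, 246 and 203 bp. No test of the differences between these shares was made.

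Short motifs were counted in windows from 250 bp upstream to 50 bp downstream of each TSS, on both strands. A match is a description of the letters and not a bound site. CCGGAA, the core bound by ETS factors, was present at 45.5% of the 1842 genes of pairs (interval 43.2% to 47.8%), at 25.8% of CpG-rich and 19.9% of all single TSSs. AAGATGGC was present at 8.74%, 4.35% and 3.49%, GCGCATGC at 7.49%, 5.32% and 3.66%, and CCAAT at 41.2%, 33.3% and 35.1% in the same order. GGGCGG was present at 74.0% of genes of pairs, 83.7% of CpG-rich and 60.2% of all single TSSs. Among CpG-rich TSSs of pairs GGGCGG was present at 80.1% and CCGGAA at 46.0%. TATAAA was found at 3.80%, 4.39% and 10.6%. Windows of the 2 genes of a close pair overlap and can hold the same match.

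Among the 530 unshared pairs 100 to 500 bp apart, those with and without CCAAT between the TSSs were set side by side, with no test. The median widest gap was 310 bp (quartiles 260 and 390 bp) in 258 pairs with it and 280 bp (230 and 330 bp) in 272 pairs without. Intervals were empty in 32.9% and 26.5%. The pairs with CCAAT had a longer median TSS distance, 247 against 224 bp, and a lower median GC content, 62.9% against 66.9%, and the part of these in the difference was not tested. For CCGGAA the medians were 290 bp with and 300 bp without, and for GGGCGG 300 and 285 bp.

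Of 35 pairs listed by name, 23 that met the rule are described here, with TSS distances from 63 to 921 bp. They are drawn in the map of named pairs. The TSSs are those of canonical transcripts, and some of these genes are annotated past their canonical TSS. GART reaches base 33543491, past the SON TSS at 33543038. TMEM258 reaches base 61792802, between its own TSS at 61792599 and the FEN1 TSS at 61792911. A position between the TSSs can therefore lie within the annotated extent of a gene.

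**Figure D5:**
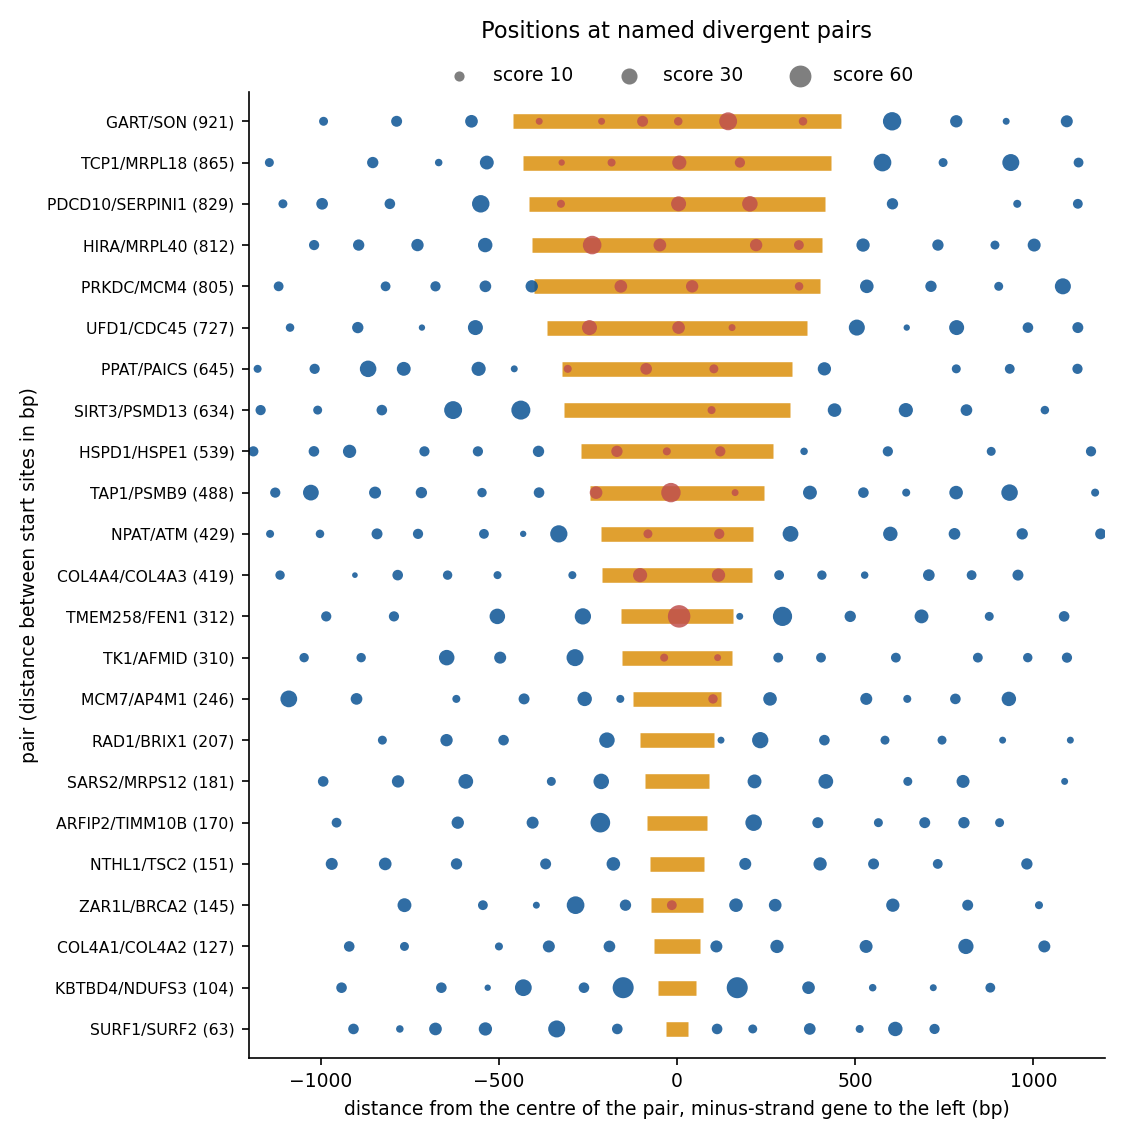
Each row is a named pair with its TSS distance in bp, ordered by it. The bar spans the interval between the start sites, blue dots are positions outward of the start sites and red dots positions between them, placed by their distance in bp from the centre of the pair (minus-strand gene to the left) with the area of a dot proportional to its score. Red dots are missing from 7 rows, all with TSSs 63 to 207 bp apart, and GART/SON at 921 bp has 6.

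Among the named pairs with a gene for a mitochondrial protein, 4 with TSSs 63 to 181 bp apart had empty intervals, at distances where 79.3% (up to 100 bp) and 55.1% (100 to 200 bp) of all pairs had one. TCP1/MRPL18 and HIRA/MRPL40, 865 and 812 bp apart, held 4 positions each. SARS2, the mitochondrial seryl-tRNA synthetase, and MRPS12, a protein of the mitochondrial ribosome, have TSSs 181 bp apart at chr19:38930763-38930944 with no position between. The positions on either side stood 122 and 127 bp outward with scores of 37.0 and 29.6, which left 430 bp between their midpoints. The SARS2-side position lay wholly in coding sequence and the MRPS12-side position wholly in an intron of the canonical transcripts. ARFIP2, whose product binds small GTPases, and TIMM10B, of the mitochondrial import machinery, had the same 430 bp around TSSs 170 bp apart. Their outward positions stood 130 bp from each TSS with scores of 59.2 and 41.9.

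KBTBD4, a substrate adaptor of a ubiquitin ligase, and NDUFS3, a core subunit of respiratory complex I, had equal scores on both sides. Their TSSs lie 104 bp apart, the outward positions stood at 99 and 117 bp, and both had a score of 67.9, higher than 99.994% of autosomal positions. The gap between them was 320 bp. SURF1, an assembly factor of cytochrome c oxidase, and SURF2 have TSSs 63 bp apart with a gap of 280 bp and scores of only 17.3 on both sides, higher than 61.0% of autosomal positions. An empty interval thus came with strong flanks in some pairs and average flanks in others.

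Genes of genome maintenance gave both kinds of interval. At NTHL1, a DNA glycosylase of base excision repair, and TSC2, an inhibitor of mTORC1 signalling, the TSSs lie 151 bp apart with a gap of 370 bp and flank scores of 28.4 and 22.2. At RAD1, of a checkpoint clamp, and BRIX1, of ribosome biogenesis, 207 bp apart, the gap was 320 bp. There the first position on the BRIX1 side stood 20 bp from the TSS with a score of 7.40, and the next, at 130 bp, had 40.7. At MCM7, a subunit of the replicative helicase, and AP4M1, 246 bp apart, 1 position with a score of 13.6 stood 22 bp from the AP4M1 TSS. ZAR1L/BRCA2, 145 bp apart, had 1 position with a score of 14.8 close to the centre and a widest gap of 180 bp, the narrowest of the 23 pairs.

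TMEM258, a subunit of the oligosaccharyltransferase, and FEN1, the flap endonuclease of replication, had a high-scoring position between their start sites. Between their TSSs, 312 bp apart, stood a position with a score of 77.7, higher than 99.998% of autosomal positions, 6 bp from the centre at chr11:61792692-61792831. On the FEN1 side a position with a score of 7.40 followed 20 bp into the gene, and 1 with a score of 56.8 at 140 bp. The TMEM258 side had a position with a score of 40.7 at 108 bp.

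The naming rule also took the highest-scoring position between TSSs in each class from 200 bp on. At UROS, an enzyme of haem synthesis, and BCCIP, 288 bp apart, the single position between had a score of 83.9 and stood 1 bp from the centre, at chr10:125823332-125823471. It was higher than 99.999% of autosomal positions and was flanked by scores of 23.4 and 65.4 at 127 and 125 bp outward. At HPS5 and GTF2H1, a subunit of TFIIH, 427 bp apart, the single position had a score of 77.7 with flanks of 12.3 and 20.97. At ACTMAP, a protease of actin maturation, and SNRPA, a protein of the U1 snRNP, 726 bp apart, the highest of 3 positions had 75.3 and the other 2 had 4.94 and 7.40. These pairs were chosen for the score.

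Longer intervals held several positions. HSPD1 and HSPE1, which encode the mitochondrial chaperonin and its partner, lie 539 bp apart with 3 positions between, with scores of 19.7, 9.87 and 16.0, beside 19.7 and 8.64 at the nearest outward positions. PPAT/PAICS, 2 enzymes of purine synthesis 645 bp apart, also held 3, with scores of 9.87, 20.97 and 12.3. GART, of purine synthesis as well, and SON, a splicing factor, 921 bp apart, held 6, of which 1 had a score of 49.4 and the other 5 had 7.40 to 18.5. TAP1/PSMB9, genes of antigen presentation 488 bp apart, held 3, with a score of 58.0 near the centre. NPAT/ATM, 429 bp apart, held 2, with scores of 12.3 and 16.0 between outward positions of 45.7 and 38.2. SIRT3/PSMD13, 634 bp apart, held only 1, with a score of 9.87 and a widest gap of 535 bp.

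The shortest and the longest TSS distance closed the range. ENSG00000286192/NUDT1, 11 bp apart, had a gap of 300 bp with scores of 61.7 and 62.9 at 144 and 145 bp outward, a nearly symmetric arrangement. ATP6V1G2/NFKBIL1, 1000 bp apart, held 6 positions with scores from 7.40 to 20.97 and a widest gap of 230 bp.

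By the naming rule, the widest gaps were those of BOLA2-SMG1P6/SLX1B and BOLA2/SLX1B (138710 bp) and of ACIN1/C14orf119 (65370 bp), which belong to the 13 pairs set aside. Over the other 944 pairs the median of the widest gap was 300 bp (quartiles 240 and 360 bp), and 148 (15.7%) had at least 400 bp. The share with a gap of at least 400 bp was not computed at single TSSs, and longer intervals take in more gaps. The count therefore does not set pairs apart. Among these 944 pairs, looked at after their values were seen, the widest gaps were WDR12/CARF with 1190 bp, H2BC12/H2AC12 with 910 bp and PARG/TIMM23B with 860 bp. In WDR12/CARF the gap lay on the CARF side, with the first position 996 bp outward.

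Gene lists differed in how many of their members lie in a divergent pair. The lists were made by gene symbol, except that of DNA repair, which was made by hand. The complex I list took every NDUF gene, so it holds assembly factors such as NDUFAF2. The proteasome list took symbols from PSMA to PSMG, so it holds PSMG2 and PSME3IP1 beside subunits. Over all autosomal protein-coding genes the share was 9.64%. It was 26 of 78 (33.3%, interval 23.9% to 44.4%) for mitochondrial ribosomal proteins, 15 of 46 (32.6%, 20.9% to 47.0%) for complex I genes and 34 of 104 (32.7%, 24.4% to 42.2%) for DNA repair genes. For replication-dependent histones it was 26 of 74 (35.1%, 25.2% to 46.5%), for aminoacyl-tRNA synthetases 8 of 34 (23.5%), for cytosolic ribosomal proteins 14 of 81 (17.3%) and for the proteasome 8 of 49 (16.3%). For ZNF genes it was 36 of 503 (7.16%), and for olfactory receptors 2 of 415 (0.48%). None of 55 keratin genes lay in a pair, which allows a share of up to 6.53%, and all 4 autosomal type IV collagen genes did, in 2 pairs. These shares describe the annotation and not the nucleosome data.

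The intervals of these lists are described by counts and medians over few pairs, with no test of a difference between lists. In pairs with a mitochondrial ribosomal protein gene, 14 of 27 had no position between and the median widest gap was 350 bp, where the median TSS distance was 187 bp. In pairs with a cytosolic ribosomal protein gene at a similar median TSS distance of 173 bp, 3 of 15 had none between and the median gap was 240 bp. Complex I pairs had 7 of 15 empty intervals and a median gap of 320 bp. Proteasome pairs had the widest median gap of these lists, 440 bp, with 2 of 9 intervals empty and a longer median TSS distance of 375 bp. Histone pairs had 10 of 14 empty and 415 bp, and pairs with an aminoacyl-tRNA synthetase gene 3 of 7 and 310 bp. DNA repair pairs outside the 13 set aside had 13 of 35 and 300 bp, and ZNF pairs 11 of 31 and 300 bp. Over all 944 pairs it was 318 (33.7%) and 300 bp. At TSS distances of 100 to 300 bp, the counts of empty intervals were 11 of 17 for mitochondrial ribosomal proteins and 2 of 9 for cytosolic ones, beside 170 of 419 (40.6%) over all pairs.

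Collagen genes COL4A1 and COL4A2, which encode chains of basement membrane collagen, lie 127 bp apart with no position between, outward scores of 20.97 and 22.2 and a gap of 300 bp. Their paralogs COL4A4 and COL4A3, 419 bp apart, had 2 positions between with scores of 30.8 and 27.1, above the 9.87 and 14.8 of their outward neighbours. COL4A4/COL4A3 thus had its higher scores between the TSSs, where NPAT/ATM had them outward.

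Histone genes formed 13 pairs with both genes of the list, 12 of them with an H2A and an H2B gene 194 to 251 bp apart. Of these 12, 9 had no position between, beside 170 of 419 (40.6%) over all pairs 100 to 300 bp apart. Their widest gaps ran from 170 bp at H2AC1/H2BC1 to 910 bp at H2BC12/H2AC12. The GC content of their intervals was 38.0% to 49.4%, below the median of 64.8% over all pairs. H2BC8/H2AC8 had a gap of 470 bp with outward scores of 12.3 and 56.8, and H2AC25/H2BC26 the same gap with 40.7 and 28.4. These genes belong to families with similar coding sequences, so reads may be placed uncertainly among them. Their sequences were not compared, and the part of this in the gaps was not tested. The H3C7/H2BC9 pair, 979 bp apart, held 4 positions.

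Of the bases of the 1888 nearest outward positions of the 944 pairs, 38.5% lay in 5′ UTR, 20.7% in coding sequence and 36.7% in introns of the canonical transcripts. The same shares were not computed at single TSSs.

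At the upper bound of the rule, the 28 pairs with TSSs more than 900 and at most 1000 bp apart held a median of 5 positions between (3 to 6), or 4.80 per kb. The 13 pairs up to 100 bp past this bound also held a median of 5 (4 to 8), or 5.12 per kb. Over the 103 divergent pairs 1000 to 2000 bp apart the density between was 0.92 of the outward level, a log2 value of -0.13, against -0.25 at 500 to 1000 bp. Their +1 maximum at 125 bp had a height of 2.18 and their +1 positions a mean score of 30.3, near the 2.33 and 31.4 of the closer pairs.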

How the data were processed

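The authors cut hiPSC chromatin with MNase, added yeast DNA, aligned the reads to GRCh38, took out regions on a blacklist and used the workflow nucMACC, with Trimmomatic 0.40 among the tools in the submitters' processing notes. The deposited list gives start, end and a score per position, here taken as a signal whose scaling is not stated. Which runs were pooled for it is not given in the sources used here, so the reads behind a score are unknown. Midpoints were taken as start plus 70 on autosomes, without a filter on score. Start sites came from GENCODE release 44 (the methods name release 48), all coordinates are 1-based on GRCh38, and no midpoint lay past the end of a chromosome of the reference used. Python 3.11.15, NumPy 2.4.6, pandas 2.3.3, SciPy 1.17.1 and matplotlib 3.10.9 were used, and the functions were tested on simulated positions. Outward maxima were sought 0 to 300 bp from the TSS and then 130 to 260 bp beyond the last. Named pairs were a list of 35, the 3 pairs with the widest gap, the pair with the highest-scoring position between in each class from 200 bp, and the shortest and longest TSS distance. The members and lists were chosen with earlier results of these data known. Values per MNase amount, nucMACC scores and gene expression were not analysed here. A further pair of the named list is not reported here.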

Additional observations from a re-analysis of the deposited data

How the results depend on the processing

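No paired analysis was possible because the values came from a pooled table that carries no replicate numbers. The 8 main values were recomputed under 54 alternatives, of which 40 stayed within 1 SD over autosomes. Weighting positions by score turned the log2 density between the TSSs from -0.33 to 0.0272, and the log2 upstream difference from CpG-rich single TSSs from -0.10 to 0.30, and that difference was 0.0776 when only positions that reached the median score were kept. The height of the +1 maximum, 2.33, was 4.11 with these positions, 4.96 weighted by score, 1.76 from 5′-most starts and 1.92 in bins of 25 bp. Its location was 135 bp from 5′-most starts, 135 bp in pairs with unshared genes and 137.5 bp in bins of 25 bp. With these higher-scoring positions alone the gap difference was 0, empty intervals made up 78.3% and the score ratio was 1.58, and with 500 to 1000 bp as reference that ratio was 1.74. The cause was not tested, except that fewer positions leave more empty intervals. Leaving out the 13 pairs without outward positions, chosen after seeing the data, moved no value by 1 SD. The pooled list has no replicates and an unknown depth, which limits every value here.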
